A study of Mus musculus with 4 samples.

Results

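The genes *Rbp4*, *Smpd3*, *Map1b* and *Car4* were followed across mesenchymal stroma cells (MSCs) and CD8+ T cells taken from *Bcr-Abl*+ tumors. They are 4 of 22911 genes with a symbol on the array. They were selected on measured values, as the genes with the largest signal in *Sipa1*-/- over Wt MSCs among bright genes, after the top-ranked *Col6a5*. Their genotype difference in MSCs is therefore a description of how they were picked, and nothing is supported with it.

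*Sipa1* encodes a GTPase-activating protein that switches off the small GTPase Rap1, a regulator of cell adhesion. The host mice were Wt or *Sipa1*-/-, of strain C57BL/6Ncr and aged 8 weeks, and each received 15000 *Bcr-Abl*+ hematopoietic progenitor cells, marked with GFP and held in Matrigel, under the skin. Tumors were taken on day 12 from 5 mice per genotype. MSCs were sorted as GFP- CD45- Ter119- CD31- cells, and CD8+ T cells as GFP- TCRb+ CD8+ cells. The MSC gate is meant to remove marked tumor cells, leukocytes, erythroid cells and endothelium, and it selects for no stromal protein. Each of the 4 groups (Wt MSCs, *Sipa1*-/- MSCs, Wt CD8+ T cells and *Sipa1*-/- CD8+ T cells) had 1 one-color Agilent array, and how the cells of the mice were combined is not given in the sources used here. There was no replicate check for any difference below, and nothing was tested.

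Signals are the background-corrected intensities of single spots. The 75th percentile of the signal, by which each array was scaled, was 472 for MSCs from Wt and 459 for those from *Sipa1*-/- tumors, and for CD8+ T cells 414 and 378. A log2 level of 0 thus means a signal at that percentile. The dimmest spot that the scanner software called well above background had a signal of 8.12, 8.30, 8.78 and 8.40 in the same order. The error given with a value is the scanner software's own estimate for the spot, which covers neither the sort nor the spread between mice. For the brighter probes printed on 10 spots, the median SD of log2 signal on an array was at most 0.045.

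*Sipa1* was read first, as a check of the labels. One probe had a log2 level of 5.03 in Wt and 3.78 in *Sipa1*-/- MSCs, and 5.40 in Wt and 3.73 in *Sipa1*-/- CD8+ T cells. The other probe stood at 3.05 and 1.46 in MSCs and at 3.43 and 1.39 in CD8+ T cells. Both probes were lower on the 2 arrays labelled *Sipa1*-/-, by more than their software error, and well above background on each array. In MSCs 15 leukocyte markers were lower on that array as well, with a median log2 difference of -2.12. The paper reports *Sipa1* expression in blood cells, so the MSC arrays alone cannot check the label. In CD8+ T cells the median of these markers was -0.09. Where these probes lie relative to the deleted part of the gene is not given in the sources used here, so the signal that remained checks nothing further.

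The 4 genes belong to unrelated families. *Rbp4* encodes the secreted retinol-binding protein that carries vitamin A in the blood, mainly from liver and fat, in complex with transthyretin. *Smpd3* encodes neutral sphingomyelinase 2, a membrane enzyme that splits sphingomyelin into ceramide and phosphocholine and is needed for normal mineralization of bone and cartilage. *Map1b* encodes a microtubule-associated protein best known from growing axons, made as a precursor that is cut into a heavy and a light chain. *Car4* encodes a carbonic anhydrase held on the outer cell surface by a lipid anchor, which interconverts carbon dioxide and bicarbonate.

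Among the 7418 genes whose mean level on the 2 MSC arrays lay above the median of -0.49, with clone and predicted names left out, the 4 genes took ranks 2 to 5 by the difference between genotypes. *Col6a5*, a collagen VI chain, stood just above them with a log2 difference of 4.53. *Rbp4* had 4.02, *Smpd3* 3.60, *Map1b* 3.52 and *Car4* 3.45. Just below came *Daglb*, a diacylglycerol lipase, with 3.34, *Retnla* with 3.29, *Col8a2* and *Aif1l* with 3.26 each and *Igfbp3* with 3.22. The step from *Car4* to *Daglb* was smaller than the software error of the *Car4* difference, 0.20. *Map1b* lay nearest to the limit on brightness, with a mean level of -0.30. Without that limit the 4 genes ranked 4, 10, 15 and 19 among 15298 genes, and the dim gene *Susd4*, with a mean level of -2.06, had a difference of 4.92. All 4 genes were thus at least 2-fold higher in *Sipa1*-/- MSCs, as the selection fixed, where 19.3% of the 15298 genes were higher by 2-fold or more and 11.3% lower by as much. Nothing is read from that count. The median over the 4 genes was 3.56, and that over all genes 0.04.

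*Rbp4* was read by 1 probe. Its signal was 395 in Wt MSCs and 6245 in *Sipa1*-/- MSCs, and 3.41 in Wt CD8+ T cells and 105 in *Sipa1*-/- CD8+ T cells. On the log2 scale these levels were -0.26 ± 0.14, 3.77 ± 0.14, -6.93 ± 0.90 and -1.84 ± 0.15 (software error). The *Sipa1*-/- MSC array was the brightest and the Wt CD8+ T array was not well above background, and no 2 neighbours in the order of the 4 arrays lay within their errors of each other. In MSCs the 2 arrays were 16.2-fold apart. In CD8+ T cells the *Sipa1*-/- array was at least 13.2-fold above the Wt array, a bound taken, here and below, against the dimmest signal called well above background. MSCs stood at least 39.5-fold above CD8+ T cells in Wt tumors and 48.8-fold above them in *Sipa1*-/- tumors. The arrays of CD8+ T cells took no part in the selection, and *Rbp4* was higher on the *Sipa1*-/- one. Of 20 fibroblast markers measured on those arrays 18 were also at least 2-fold higher there, beside 2.66% of all genes. The part of stromal RNA in the *Rbp4* difference was not tested.

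Retinol that reaches a cell from its carrier enters through Stra6 and is oxidized to retinoic acid, the ligand of the Rar and Rxr nuclear receptors. A list of 37 genes of retinoid transport and metabolism had 36 on the array, and 24 of them passed the flags on both MSC arrays. Without *Rbp4*, 13 of 23 were at least 2-fold higher in *Sipa1*-/- MSCs and 0 at least 2-fold lower. Of all genes, 19.3% were higher and 11.3% lower by as much. The median log2 difference of the 23 was 1.15. Of the related binding proteins, *Rbp3* had levels of 1.25 in Wt and 1.21 in *Sipa1*-/- MSCs. *Rbp2* was at -5.58 in Wt MSCs and not well above background in *Sipa1*-/- MSCs, and *Rbp7* was not well above background in either.

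The partners of the carrier were dim or little different. *Ttr*, which encodes transthyretin, was not well above background in Wt MSCs and at -5.64 in *Sipa1*-/- MSCs. The receptor gene *Stra6* had levels of 0.11 and 0.60. The largest differences on the list besides *Rbp4* itself were in *Lpl*, lipoprotein lipase, which also splits retinyl esters, with levels of 0.32 and 2.84, in *Rarb*, a retinoic acid receptor, with a difference of 2.36, and in *Dhrs3*, a retinal reductase, with levels of 0.26 and 2.45. On the CD8+ T arrays 21 genes of the list were measured, *Rbp4* not among them for its dim Wt array. Of the 21, 1 was at least 2-fold higher, *Lpl* with 1.35, and 0 lower, beside 2.66% and 1.4% of all genes. The median of the 21 was 0.05 and turned to -0.10 when arrays were scaled by their medians.

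*Smpd3* was read by 2 probes. The first had signals of 277 in Wt MSCs, 3444 in *Sipa1*-/- MSCs, 5.37 in Wt CD8+ T cells and 26.2 in *Sipa1*-/- CD8+ T cells, or log2 levels of -0.77 ± 0.14, 2.91 ± 0.14, -6.27 ± 0.52 and -3.85 ± 0.17. The second had signals of 115, 1280.4, 5.98 and 10.9, or log2 levels of -2.04 ± 0.15, 1.48 ± 0.14, -6.11 ± 0.46 and -5.12 ± 0.27. Both probes put the arrays in the same order, with *Sipa1*-/- MSCs highest and Wt CD8+ T cells not well above background. In MSCs the genotypes were 12.8-fold apart by the first probe and 11.5-fold by the second, so that the 2 readings differed by less than the error of either. In CD8+ T cells the *Sipa1*-/- array was at least 3.28-fold higher by the first probe and at least 1.36-fold by the second, where signals were close to background. Within *Sipa1*-/- tumors MSCs stood 108-fold and 97.1-fold above CD8+ T cells by the 2 probes, where normexp gave *Smpd3* a smaller log2 difference, 4.59, than *Rbp4*, 4.85. In Wt tumors the bounds were at least 27.7-fold and at least 11.5-fold.

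Ceramide made from sphingomyelin can be turned back by sphingomyelin synthases, phosphorylated by ceramide kinase, or cut by ceramidases into sphingosine, the precursor of the signaling lipid sphingosine 1-phosphate. Of 47 genes of this metabolism 44 were on the array, and 35 passed the flags on both MSC arrays. Without *Smpd3*, 9 of 34 were at least 2-fold higher in *Sipa1*-/- MSCs and 4 at least 2-fold lower, with a median of 0.37, beside the 19.3% and 11.3% of all genes. With *Smpd3*, the 10 higher were 6 under the median shift and 5 under normexp. The lysosomal *Smpd1* had levels of 3.26 in Wt and 3.61 in *Sipa1*-/- MSCs, the neutral *Smpd2* had -1.38 and -0.48, *Smpd4* had a difference of -1.11, and *Smpd5* was not well above background in either. *Smpdl3a*, of the related acid sphingomyelinase-like genes, had 1.73 and 2.78.

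The largest differences on this list after *Smpd3* ran in both directions. *S1pr4*, a sphingosine 1-phosphate receptor of leukocytes, had levels of -0.39 in Wt and -3.70 in *Sipa1*-/- MSCs, and *Cerk*, the ceramide kinase, 3.46 and 0.97. *Acer1*, an alkaline ceramidase, was higher in *Sipa1*-/- MSCs, with -5.51 and -3.56. The CD8+ T arrays measured 37 genes, without *Smpd3*, and 0 were at least 2-fold higher and 1 lower, the sphingomyelin synthase *Sgms2* with -1.77. Of all genes there, 2.66% were higher and 1.4% lower by as much. The median of the 37 was -0.06, and turned to 0.07 under the series matrix values and to 0.02 under normexp.

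*Map1b* was read by 2 probes, which differed in size. One had signals of 652 in Wt MSCs, 2940.0 in *Sipa1*-/- MSCs, 36.5 in Wt CD8+ T cells and 73.5 in *Sipa1*-/- CD8+ T cells, or log2 levels of 0.47 ± 0.14, 2.68 ± 0.14, -3.50 ± 0.16 and -2.36 ± 0.15. The other had signals of 19.5, 541, 5.22 and 13.8, or log2 levels of -4.60 ± 0.20, 0.24 ± 0.14, -6.31 ± 0.58 and -4.78 ± 0.25. By the first probe the 4 arrays were well apart and all well above background. By the second the Wt MSC and *Sipa1*-/- CD8+ T arrays lay within their errors of each other, and Wt CD8+ T cells were not well above background.

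The genotypes differed 4.63-fold in MSCs by the first *Map1b* probe and 28.6-fold by the second, log2 differences of 2.21 ± 0.20 and 4.84 ± 0.25. The mean of 3.52 that placed *Map1b* among the 4 genes thus rests on the probe that was dim in Wt MSCs, and the first probe alone would have stood below the 3.34 of *Daglb*. Both probes are annotated to the same transcript, and the part of the transcript that each reads is not given in the sources used here. In CD8+ T cells the *Sipa1*-/- array was 2.21-fold higher by the first probe, a log2 difference of 1.14 ± 0.22 that was 0.51 under normexp, and at least 1.72-fold by the second. Within *Sipa1*-/- tumors the probes gave nearly the same distance between the cell types, 32.9-fold and 32.4-fold. In Wt tumors they gave 15.7-fold and at least 1.95-fold. Under normexp *Map1b* had a log2 difference of 2.52 between the genotypes in MSCs, against 3.52. Between the cell types it had 3.49 in *Sipa1*-/- tumors, against 5.03, and 2.63 in Wt tumors, against 3.97.

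Microtubule-associated proteins stabilize, bundle or, in the stathmin family, take apart the microtubules of the cytoskeleton. Of 41 such genes 40 were on the array and 35 passed the flags on both MSC arrays. Without *Map1b*, 13 of 34 were at least 2-fold higher in *Sipa1*-/- MSCs and 3 at least 2-fold lower. Of all genes, 19.3% were higher and 11.3% lower by as much. The median without *Map1b* was 0.74. In its own family, *Map1a*, the closest relative, had a difference of 2.26, while *Map1s* had levels of 1.27 in Wt and 1.21 in *Sipa1*-/- MSCs. Of the light chain 3 genes, which serve autophagy, *Map1lc3a* had 0.35 and 1.63 and *Map1lc3b* 3.89 and 4.10.

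The largest differences on this list ran in both directions. The stathmin gene *Stmn4* had levels of -1.86 in Wt and 1.20 in *Sipa1*-/- MSCs. *Stmn1*, which is abundant in dividing cells, had 6.05 and 3.51, and *Map7*, a microtubule stabilizer, -0.10 and -2.88. Of 35 genes other than *Map1b* measured in CD8+ T cells, 3 were at least 2-fold higher and 0 lower, beside 2.66% and 1.4% of all genes. Their median was 0.10, and the median of the list turned to -0.04 when arrays were scaled by their medians. With *Map1b*, the 4 higher were 1 under the median shift and 0 under normexp.

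*Car4* was read by 1 probe, well above background on all 4 arrays. Its signal was 185 in Wt MSCs, 1965 in *Sipa1*-/- MSCs, 17.4 in Wt CD8+ T cells and 32.5 in *Sipa1*-/- CD8+ T cells, or log2 levels of -1.35 ± 0.14, 2.10 ± 0.14, -4.57 ± 0.22 and -3.54 ± 0.17. The order of the arrays was the same as for *Rbp4* and *Smpd3*, and each array was apart from the next by more than their errors. The genotypes differed 10.9-fold in MSCs and 2.04-fold in CD8+ T cells, the latter a log2 difference of 1.03 ± 0.27. That value was 0.34 under normexp, the correction that shrinks dim signals. MSCs stood 9.32-fold above CD8+ T cells in Wt tumors and 49.8-fold above them in *Sipa1*-/- tumors. Under normexp these log2 differences of 3.22 and 5.64 were 1.46 and 4.18.

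Carbonic anhydrases work with bicarbonate transporters of the Slc4 family to set pH on both sides of the cell membrane. Of 26 genes of both kinds 25 were on the array and 20 passed the flags on both MSC arrays. Without *Car4*, 6 of 19 were at least 2-fold higher in *Sipa1*-/- MSCs and 1 at least 2-fold lower. Of all genes, 19.3% were higher and 11.3% lower by as much. The median of the 19 was 0.26. The cytosolic enzymes differed little or were lower, with levels of 0.43 in Wt and 0.07 in *Sipa1*-/- MSCs for *Car1*, 5.07 and 4.24 for *Car2*, 1.11 and 0.66 for *Car7* and 0.02 and -0.30 for *Car13*. The muscle form *Car3* was the exception, with 1.80 and 2.94.

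Of the other enzymes on the outer cell surface, *Car9* had levels of -3.07 in Wt and -1.21 in *Sipa1*-/- MSCs, *Car12* -3.30 and -3.08, *Car14* -5.66 and -5.52 and *Car15* a difference of -0.18. Only *Car9* among these 4 was past 2-fold as *Car4* was. The secreted *Car6* was not well above background in Wt MSCs and at -2.57 in *Sipa1*-/- MSCs, and the mitochondrial *Car5a* was not well above background in either. Of the relatives without enzyme activity, *Car8* had a difference of 2.03 and *Car11* levels of -4.06 and -1.77, while *Car10* was not well above background in either. The bicarbonate transporter *Slc4a4* had -1.31 and 0.58. Another, *Slc4a1*, was the brightest gene of the list in MSCs, at 5.09 in Wt and 5.01 in *Sipa1*-/-. The part of erythroid RNA in the signals of this list was not tested. Of 17 genes other than *Car4* measured in CD8+ T cells, 2 were at least 2-fold higher and 2 lower, with a median of 0.18. Of all genes, 2.66% were higher and 1.4% lower by as much. With *Car4*, the 3 higher were 0 under the median shift, quantile normalization and normexp. The 2 lower were 0 under normexp.

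**Figure D1:**
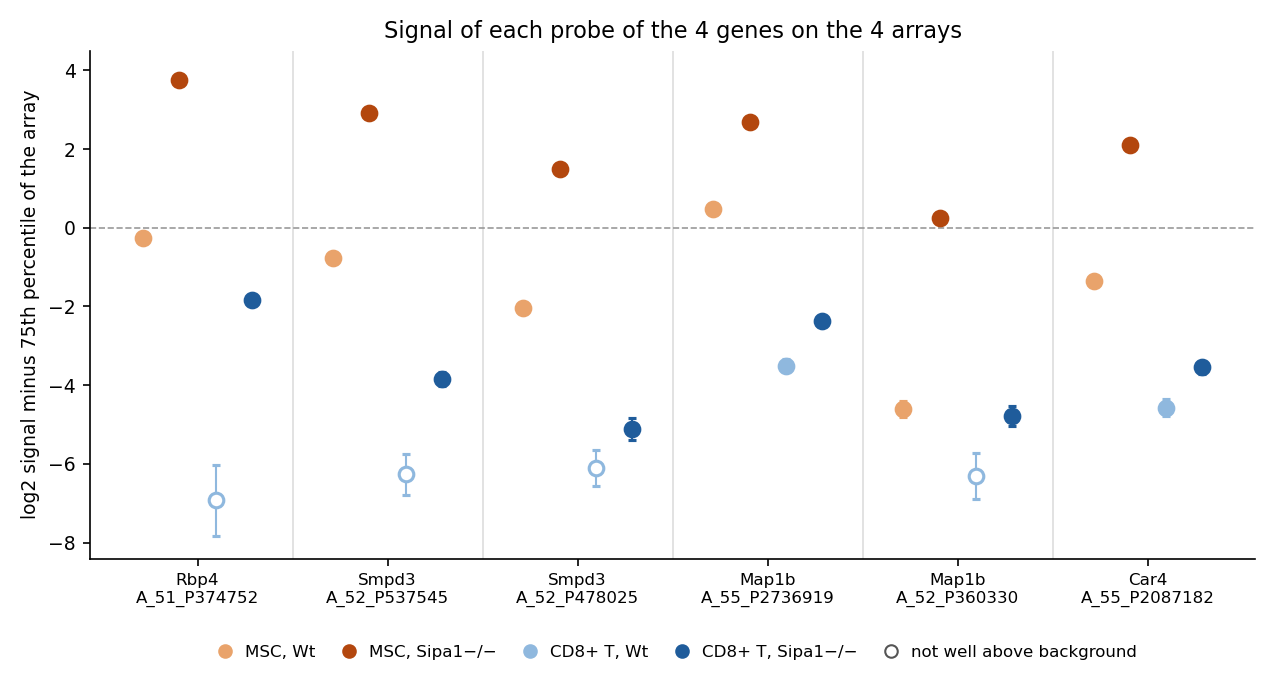
Log2 signal minus the 75th percentile of the array (vertical axis) for each of the 6 probes of *Rbp4*, *Smpd3*, *Map1b* and *Car4*, with 1 point per array, bars for the scanner software's error and open points where not well above background. Each probe is highest in *Sipa1*-/- MSCs, which were selected to exceed Wt MSCs, and lower in Wt than in *Sipa1*-/- CD8+ T cells, where 4 of the 6 probes are open in the Wt group.

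**Figure D2:**
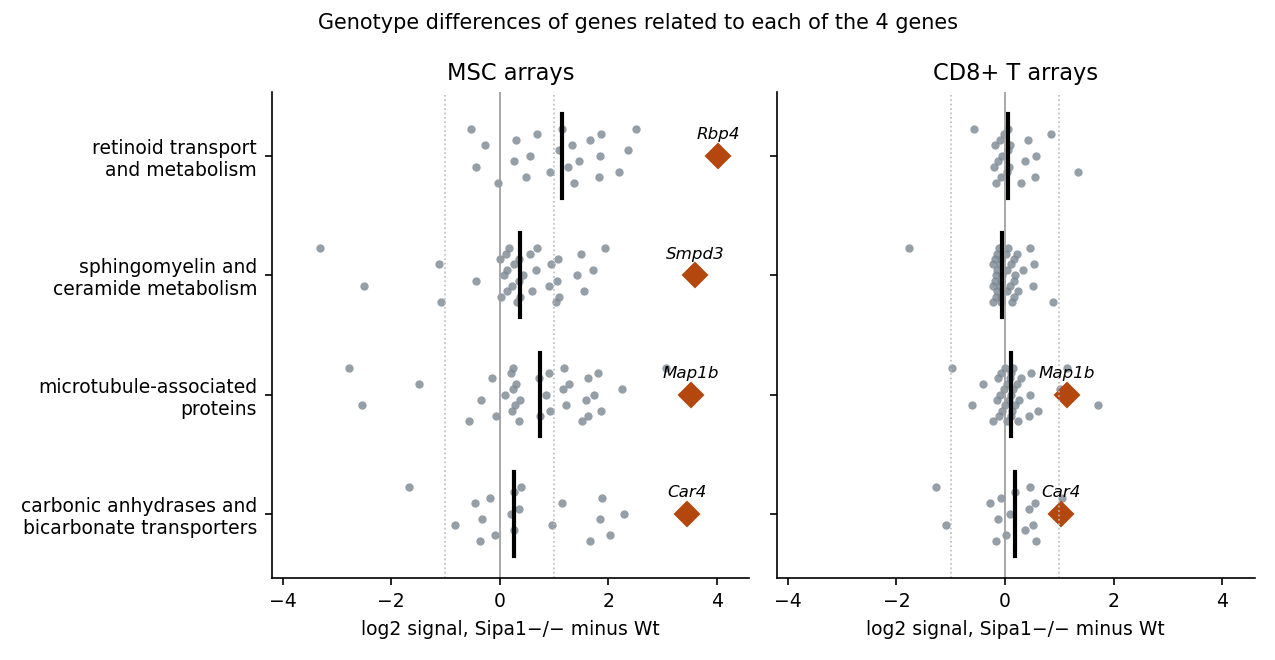
Log2 difference of *Sipa1*-/- minus Wt (horizontal axis) for genes of the 4 lists, on the MSC arrays (left) and the CD8+ T arrays (right), with single genes in grey, medians without the selected gene as black bars, measured selected genes as orange diamonds and 2-fold as dotted lines. Retinoid genes have the highest of the 4 medians in MSCs, 1.15.

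The genotype comparison in CD8+ T cells rests on arrays that the selection did not use. All 6 probes of the 4 genes were higher on the *Sipa1*-/- array. The Wt array was not well above background for 4 of them, so only *Map1b* and *Car4* could be given a difference on the terms used for all genes. Both were at least 2-fold higher, with a median of 1.09 over these 2 genes, where 2.66% of 14339 genes were higher by 2-fold or more and 1.4% lower by as much. *Map1b* and *Car4* ranked 289 and 355 from the top. Neither was 2-fold higher under normexp or the median shift, and *Car4* was not under quantile normalization. With 1 array per genotype and 2 genes left by the filter, this count supports no statement on the 4 genes as a group. The ranked neighbours of the 4 genes in MSCs were also mostly higher in *Sipa1*-/- CD8+ T cells, *Col6a5* by 3.69, *Aif1l* by 2.62, *Retnla* by 1.54, *Col8a2* by 1.30, *Igfbp3* by 1.19 and *Daglb* by 0.37.

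Between the cell types, the 4 genes were brighter in MSCs in both genotypes. The MSC arrays took part in the selection, which favored a high *Sipa1*-/- and a low Wt value. In Wt tumors *Map1b* and *Car4* passed the flags on both arrays and were higher in MSCs, with a median log2 difference of 3.60, where 17.3% of 14225 genes were at least 2-fold higher in MSCs and 12.8% at least 2-fold lower. In *Sipa1*-/- tumors all 4 genes passed and were higher in MSCs, with a median of 5.62, where 21.9% of 14300 genes were higher by 2-fold or more and 18.7% lower by as much. *Smpd3*, with 6.68, ranked 21 from the top of these genes, *Car4* 142, *Rbp4* 152 and *Map1b* 409. The comparisons share arrays with each other, and their values are given side by side for that reason.

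RNA of other cells could enter either sort, and marker lists of 10 cell types were read beside the 4 genes. Summed levels are in units of the 75th percentile of the array. Counts of markers past 2-fold stand beside the shares of all genes. In *Sipa1*-/- MSCs these were 19.3% higher and 11.3% lower, and in *Sipa1*-/- CD8+ T cells 2.66% and 1.4%. T cell markers, of which 14 of 16 were on the array, were read against the labels. They summed to 809 in Wt and 857 in *Sipa1*-/- CD8+ T cells against 64.5 and 99.0 in the 2 groups of MSCs, where *Thy1*, which fibroblasts share, was the brightest. Without it the sums were 21.9 in Wt and 5.22 in *Sipa1*-/- MSCs, with *Cd2* brightest, and 643 and 681 in CD8+ T cells. Single T cell genes went both ways in MSCs, with 4 of 13 at least 2-fold higher, among them *Cd3d*, *Cd3g* and *Cd8b1*, and 4 lower, among them *Cd2*. *Cd8a* was not well above background in Wt MSCs and was at -4.94 in *Sipa1*-/- MSCs. The 20 fibroblast markers were all well above background on all arrays and summed to 1305 in Wt and 2616 in *Sipa1*-/- MSCs, with *Col1a2* brightest at 8.56 and 8.91.

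The fibroblast markers were higher on the *Sipa1*-/- arrays, as the 4 genes were, in both cell types. In MSCs 13 of 17 measured were at least 2-fold higher on the *Sipa1*-/- array, with a median of 1.58. Of 20 measured in CD8+ T cells 18 were, with a median of 1.62, against differences of 1.14 for *Map1b* and 1.03 for *Car4*. Without *Thy1*, which is also a T cell marker, the summed fibroblast level was 52.3 in Wt and 152 in *Sipa1*-/- CD8+ T cells, with *Col1a2* brightest at 4.24 and 5.77. Between the cell types the fibroblast markers had a median of 5.42 in *Sipa1*-/- tumors, where the 4 genes had 5.03 to 6.68, and of 5.07 in Wt tumors, where *Map1b* had 3.97 and *Car4* 3.22. The part of stromal RNA in the signals of the 4 genes on the CD8+ T arrays was not tested.

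B-lineage markers were lower in *Sipa1*-/- MSCs, the reverse of the 4 genes. All 18 were well above background in Wt MSCs and summed to 708, with *Vpreb1* brightest at 7.57. In *Sipa1*-/- MSCs they summed to 45.1, with *Vpreb3* brightest at 3.57 and *Rag1* not well above background, and 17 of 17 measured were at least 2-fold lower. Pan-leukocyte markers summed to 185 in Wt and 52.2 in *Sipa1*-/- MSCs, with 13 of 15 at least 2-fold lower, and *Coro1a* and *Cd52* the brightest at 6.18 and 4.18. *Ptprc*, which encodes the CD45 of the gate, was at 0.76 and -0.55. The paper reports that *Bcr-Abl*+ cells placed under the skin were biased to the B lineage as they differentiated. A sort with fewer stromal cells and less RNA of a gene per stromal cell cannot be told apart in such bulk samples. The part of leukocyte or tumor-cell RNA in the MSC differences of the 4 genes was not tested. The B-lineage sums in CD8+ T cells were 38.9 in Wt and 31.5 in *Sipa1*-/-, with *Cd79b* brightest in both, and *Vpreb1*, *Vpreb3* and *Igll1* were at least 2-fold lower in *Sipa1*-/-, 3 of 16 measured. The pan-leukocyte sums were 668 and 644, with *Cd52* brightest.

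Other types known to express 1 of the 4 genes were read as well. Adipocytes secrete Rbp4, and of 15 adipocyte markers *Slc2a4* was the brightest in MSCs at -0.54 in Wt and -0.19 in *Sipa1*-/-. The list summed to 2.35 and 4.45. Of 8 measured on both MSC arrays, 2 were at least 2-fold higher in *Sipa1*-/-, *Fabp4* by 1.42 and *Cebpa* by 1.59, and 0 lower. *Adipoq*, *Plin1*, *Cidec*, *Cfd*, *Adrb3* and *Pck1* were not well above background in Wt MSCs, and of these *Cidec* and *Pck1* were not in *Sipa1*-/- MSCs either, where *Adipoq* was at -3.79. The adipocyte sums in CD8+ T cells were 1.75 in Wt and 1.80 in *Sipa1*-/-, with *Fabp4* brightest.

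Cartilage and bone cells use Smpd3, and the 18 osteoblast and chondrocyte markers summed to 20.1 in Wt and 54.1 in *Sipa1*-/- MSCs, with *Col2a1* brightest at 2.77 in Wt and *Spp1* at 4.98 in *Sipa1*-/-. Of 8 measured on both MSC arrays *Col2a1*, *Comp*, *Runx2* and *Spp1* were at least 2-fold higher in *Sipa1*-/- and *Alpl* was lower, with a difference of -4.07. The markers *Sp7*, *Bglap*, *Ibsp*, *Dmp1*, *Phex*, *Col9a1*, *Col10a1*, *Matn1* and *Matn3* were not well above background in either, and *Chad* was not in Wt. Their sums in CD8+ T cells were 1.93 in Wt and 2.41 in *Sipa1*-/-, with *Spp1* brightest. Neurons and Schwann cells express *Map1b*, and the 19 markers of these cells summed to 9.15 in Wt and 19.2 in *Sipa1*-/- MSCs, with *Pmp22* brightest at 1.66 and 3.09. Of 14 measured on both MSC arrays 8 were at least 2-fold higher in *Sipa1*-/-, *Ncam1* by 2.69 and *Gap43* by 2.00, and 0 lower. *Erbb3*, *Nefl*, *Nefm* and *Prph* were not well above background in either and *Cdh19* was not in Wt. They summed in CD8+ T cells to 4.19 and 4.35, with *Nefh* brightest.

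Endothelium of capillaries carries Car4, and the 15 endothelial markers summed to 14.2 in Wt MSCs, with *Egfl7* brightest at 2.36, and to 18.4 in *Sipa1*-/- MSCs, with *Flt1* brightest at 3.36. *Pecam1*, the CD31 of the gate, was at -1.47 and -2.96, *Tie1* was not well above background in either, and *Cldn5* was not in Wt. Of 13 measured, *Flt1*, *Kdr*, *Tek* and *Robo4* were at least 2-fold higher in *Sipa1*-/- MSCs and *Erg* and *Pecam1* lower. The endothelial sums in CD8+ T cells were 7.61 in Wt and 8.57 in *Sipa1*-/-, with *Egfl7* brightest. Skeletal muscle, which lies under the skin, had 15 markers that summed to 128 in Wt and 216 in *Sipa1*-/- MSCs, with *Tnnc2* brightest at 5.59 and 6.37, *Pax7* not well above background in either and *Myod1* not in Wt. Of 13 muscle markers measured on both MSC arrays 2 were at least 2-fold higher in *Sipa1*-/- and 0 lower, with a median of 0.60. The muscle sums in CD8+ T cells were 3.24 and 4.03, with *Tnni2* brightest. The 13 keratinocyte markers summed to 10.5 in Wt and 9.58 in *Sipa1*-/- MSCs and to 14.7 in both groups of CD8+ T cells, with *Sfn* brightest on each array. Of the 10 measured on both MSC arrays, *Krt14* and *Perp* were at least 2-fold higher in *Sipa1*-/- MSCs and *Sfn* was lower. Counted at any size, 9 of the 10 differences were above 0, with a median of 0.56. *Krt1* and *Dsg3* were not well above background in MSCs of either genotype and *Lor* was not in those of Wt. The part of these cells in the differences of the 4 genes was not tested.

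**Figure D3:**
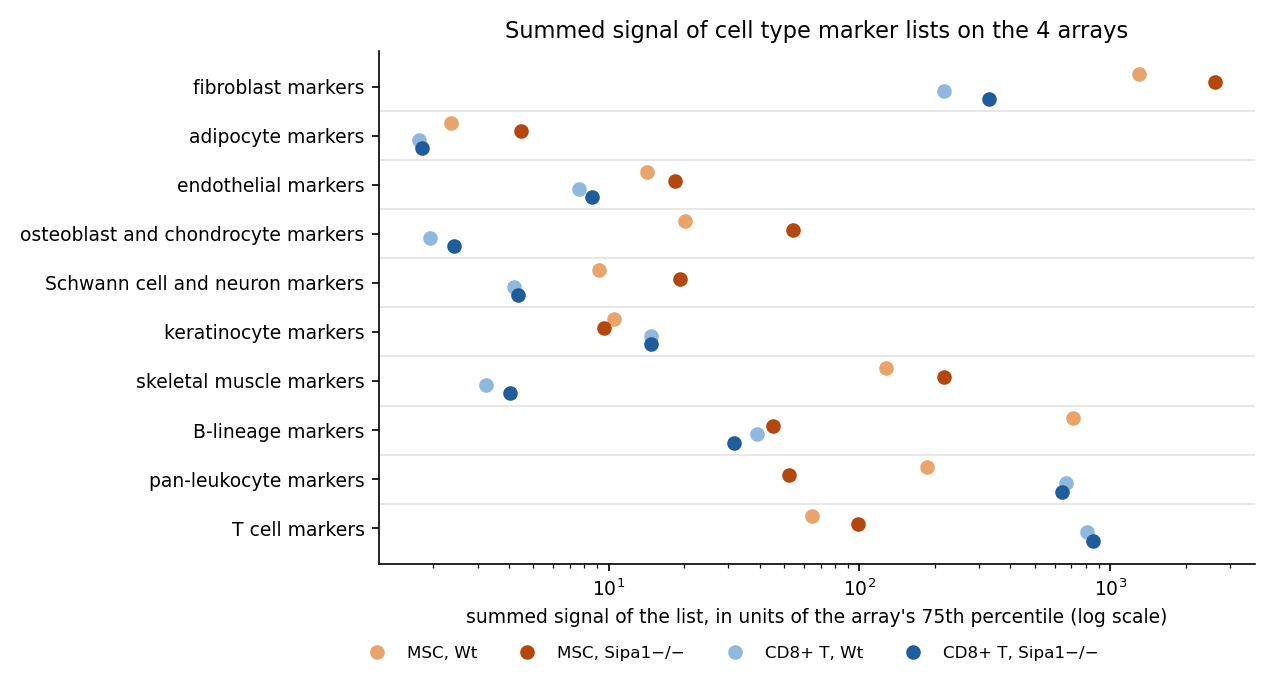
Summed signal of 10 marker lists (rows) in units of the 75th percentile of each array (horizontal log axis), with 1 point per array. B-lineage markers sum to 708 in Wt and 45.1 in *Sipa1*-/- MSCs, and fibroblast markers to 1305 and 2616.

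Genes whose levels on the 4 arrays, each centred on its own mean, lay nearest to those of a selected gene were found by the root mean square difference among 14232 genes that passed the flags on both MSC arrays, with clone and predicted names left out. Levels in CD8+ T cells entered whether or not they were well above background, which 4 of the 6 probes were not in Wt. The distance also takes in the MSC values of the selection, so nothing is read from how many genes lay near. For *Car4* the nearest were *Col8a2* at 0.12, *Pitx1* at 0.18 and *Hpca* at 0.19, and 86 genes, 0.604%, lay within 0.5. For the first *Smpd3* probe they were *Duox1* at 0.26 and *Dnm3os* and *Wnt9a* at 0.31 each, with 15 genes within 0.5, and for the second *Tro* at 0.26, *Rian* at 0.31 and *Mirg* at 0.33, with 44 genes.

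The first *Map1b* probe had *Cacna1g* at 0.04 and *Aoc3* and *Cd276* at 0.07 each, and 633 genes, 4.45%, lay within 0.5. The second had *Mlana* at 0.55, *Hlf* at 0.58 and *Tmem74b* at 0.59, with 0 genes within 0.5. *Rbp4* had 0 genes within 0.5 as well, and its nearest were *Duoxa1* at 0.63, *Gdf10* at 0.69 and *Col6a5* at 0.73.

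The 4 genes lie on 4 chromosomes of the mouse genome (build GRCm38.p6, RefSeq). *Rbp4* spans chr19:38116620-38125321, *Smpd3* chr8:106252548-106337965, *Map1b* chr13:99421464-99516602 and *Car4* chr11:84957754-84966054. *Sipa1* itself lies at chr19:5651185-5663722, on the chromosome of *Rbp4* and 32.5 Mb away from it.

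The 4 genes were picked for a difference in the same direction, and the stretches around their starts are shown for the motifs they share. The RefSeq promoter table had entries for 3 of the 4 genes, with 2 starts for *Rbp4*, each 300 bases long across the start. *Smpd3* had no entry. Capitals mark matches, on either strand and without overlap, to the TATA box TATAAA, the NF-Y motif CCAAT, the Sp1 motif GGGCGG, the Myc motif CACGTG, the Snail motif CAGGTG, the AP-1 motif TGANTCA or the STAT motif TTCCNNGAA. The *Rbp4* stretches, both on the minus strand, lie at chr19:38125272-38125571 and chr19:38124762-38125061, that of *Map1b* at chr13:99516553-99516852 on the minus strand, and that of *Car4* at chr11:84957504-84957803 on the plus strand.
*Rbp4*, first start: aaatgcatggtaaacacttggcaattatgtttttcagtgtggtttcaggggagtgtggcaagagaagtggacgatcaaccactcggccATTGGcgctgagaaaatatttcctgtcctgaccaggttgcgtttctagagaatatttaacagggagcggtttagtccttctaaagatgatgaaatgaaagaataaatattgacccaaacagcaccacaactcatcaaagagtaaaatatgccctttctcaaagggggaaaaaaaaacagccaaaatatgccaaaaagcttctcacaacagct
*Rbp4*, second start: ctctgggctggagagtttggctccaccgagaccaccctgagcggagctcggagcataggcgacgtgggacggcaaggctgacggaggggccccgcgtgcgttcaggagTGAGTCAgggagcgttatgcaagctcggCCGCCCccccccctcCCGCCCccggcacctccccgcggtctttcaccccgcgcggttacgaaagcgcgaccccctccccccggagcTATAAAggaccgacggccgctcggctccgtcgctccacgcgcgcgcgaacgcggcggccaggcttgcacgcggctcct
*Map1b*: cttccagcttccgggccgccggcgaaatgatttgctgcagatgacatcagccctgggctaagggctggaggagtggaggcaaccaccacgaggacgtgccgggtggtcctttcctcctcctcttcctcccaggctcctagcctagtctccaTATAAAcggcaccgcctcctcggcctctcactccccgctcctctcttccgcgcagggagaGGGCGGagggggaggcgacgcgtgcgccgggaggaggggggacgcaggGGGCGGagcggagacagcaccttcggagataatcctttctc
*Car4*: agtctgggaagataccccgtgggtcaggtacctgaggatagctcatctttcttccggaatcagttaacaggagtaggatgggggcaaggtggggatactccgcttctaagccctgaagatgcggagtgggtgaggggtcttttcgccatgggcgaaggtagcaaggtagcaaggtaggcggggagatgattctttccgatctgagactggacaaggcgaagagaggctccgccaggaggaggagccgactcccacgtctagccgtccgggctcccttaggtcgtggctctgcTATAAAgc

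The motif TATAAA was the only one found for all 3 genes, and 13.6% of the 32851 promoters in the table hold it. It began 28 bases before the second *Rbp4* start, 99 bases before the *Map1b* start and 43 bases into the *Car4* transcript. GGGCGG, held by 35.7% of all promoters, was found at 2 places near the second *Rbp4* start and 2 near the *Map1b* start. The second *Rbp4* stretch also held TGANTCA, found in 7.81% of all promoters, and the first held CCAAT, found in 37.4%. CACGTG, held by 7.15%, CAGGTG, held by 20.2%, and TTCCNNGAA, held by 4.81%, were in none of the 4 stretches. The share of G and C was 40.7% at the first *Rbp4* start, 72% at the second, 65.7% for *Map1b* and 57.3% for *Car4*, against a median of 52.7% over all promoters. Binding of a factor to these letters was not tested.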

How the data were processed

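The deposited unit is the intensity of single spots on 4 one-color Agilent arrays, background-corrected in the authors' Feature Extraction software and without normalization across arrays. The submitters' processing notes name version 9.1 and the file headers version 12.0.3.1. The authors' series matrix holds the same intensities times 1 constant per array, with the origin of the constants not stated. Here, log2 signals were shifted by the 75th percentile of the array's 59305 non-control spots. Probes were kept with the saturation and non-uniformity flags at 0 and both signal flags at 1, on each of the 2 arrays compared. Averaging went from spots to probes and from probes to genes. Accessions were named through a RefSeq table of GRCm38.p6, which matched 57.6% of the spots. A log2 difference of 1 was the limit for counts. The members and lists were chosen with earlier results of these data known. Named genes are the 4 members with every probe, *Sipa1*, the genes ranked next to the members, relatives of the same family with the 3 largest MSC differences of each family list, of each marker list the brightest, those not well above background and some past 2-fold, and the 3 genes nearest in pattern to each member probe. *Slc4a1* is named as the brightest gene of its list in MSCs. *Stmn2* and *Thy1* are on 2 lists each. With 1 array per group no test was made. The gene-level calculation was tested on simulated data. Alternatives were median shift, quantile normalization, the series matrix, normexp with offset 50 on the median spot signal, a looser filter (flags on 1 array) or none, keeping saturated spots, taking a gene's brightest probe, and leaving out genes under the median signal. Scripts ran in R 4.3.3 with limma 3.58.1 and in Python 3.11.15 with matplotlib 3.10.9, pandas 2.3.3 and numpy 2.4.6.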

Additional observations from a re-analysis of the deposited data

Results flagged for a closer look

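Among the genes of the 4 family lists, *Sgms2*, a sphingomyelin synthase on the list of *Smpd3*, differed at least 2-fold between the genotypes in both cell types and in opposite directions. Its log2 level was -2.62 in Wt and -1.20 in *Sipa1*-/- MSCs, a difference of 1.42, and -3.48 in Wt and -5.25 in *Sipa1*-/- CD8+ T cells, a difference of -1.77, which was under 2-fold with normexp. Each group had 1 array, so whether MSCs and CD8+ T cells differed in this was not tested. None of *Rbp4*, *Smpd3*, *Map1b* and *Car4* went in opposite directions.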

How the results depend on the processing

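No paired analysis was possible, as each group had 1 array and the sources link no mouse across groups. The median differences and counts were recomputed under the alternatives, and a median counted as moved past the software error of 0.18 in MSCs, 0.25 in CD8+ T cells, 0.24 for the cell types in Wt and 0.20 in *Sipa1*-/-. No median over those of the 4 genes that were measured changed direction. For the genotypes in CD8+ T cells and the cell types in Wt these were only *Map1b* and *Car4*, save with flags on 1 array or no flags. Of 96 single-gene values of the 4 genes, 67 stayed within these limits, 29 moved and 0 reversed. Saturated spots kept changed nothing, as 0 were saturated.

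For the genotypes in MSCs the median of 3.56 was 3.77 with the series matrix and 3.12 with normexp. The 2958 genes at least 2-fold higher were 1828 with normexp. Above the median signal they were 1307, and the 1733 lower were 901. *Map1b* was at 2.21 with its brightest probe alone.

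For the genotypes in CD8+ T cells the median of 1.09 was 0.43 with normexp, and 1.52 over 4 genes with flags on 1 array and with no flags, which take in *Rbp4* and *Smpd3* against Wt signals not well above background. The 381 genes higher and 201 lower were 108 and 98 with normexp, 685 and 371 with flags on 1 array, 1059 and 633 with no flags, and 67 and 70 above the median signal. *Map1b* was at least 2-fold higher in 7 of 9 settings and *Car4* in 6 of 9.

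For the cell types in Wt the median of 3.60 was 4.05 with the series matrix, 2.05 with normexp, and 4.004 with flags on 1 array and with no flags, again with such Wt signals of *Rbp4* and *Smpd3*. The 2457 genes higher in MSCs were 3898 with flags on 1 array and 4185 with no flags, and the 1821 lower were 1082 with the series matrix. Above the median signal they were 860 and 861.

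For the cell types in *Sipa1*-/- the median of 5.62 was 5.40 with the median shift, 6.15 with the series matrix and 4.38 with normexp. The 3131 genes higher in MSCs were 4739 with flags on 1 array and 5019 with no flags, and the 2671 lower were 1357 with the series matrix. Above the median signal they were 1307 and 1384.

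Of the genes past 2-fold in either direction, 63.1% were higher in the MSC comparison, 74.1% with the series matrix and 54.1% with the median shift. In CD8+ T cells 65.5% was 52.5% with the median shift, 76.3% with the series matrix and 52.4% with normexp. Between cell types, 57.4% in Wt was 45.5% with the median shift and 76.6% with the series matrix, and 54.0% in *Sipa1*-/- was 42.9% and 76.3%. The all-gene median shifted by -0.14, -0.15, -0.23 and -0.22 in the 4 comparisons with the median shift, by 0.21, 0.13, 0.45 and 0.53 with the series matrix, by 0.11 between cell types in *Sipa1*-/- with flags on 1 array and by -0.10 in Wt with no flags. It turned sign in MSCs with the median shift, in the other 3 comparisons with the series matrix, in CD8+ T cells with normexp and no flags, and between cell types in Wt with flags on 1 array.

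Counts of the gene lists, with selected genes, moved as well. In MSCs the 10 sphingolipid genes higher were 6 with the median shift and 5 with normexp, the 4 lower were 2 with the series matrix and normexp, and the 0 retinoid genes lower were 2 with flags on 1 array and 3 with no flags. In CD8+ T cells the 4 microtubule genes higher were 1 with the median shift and 0 with normexp, and the 0 lower were 1 with the median shift, quantile normalization and the brightest probe. The 3 carbonic anhydrase and transporter genes higher were 0 with the median shift, quantile normalization and normexp, and the 2 lower were 1 with the series matrix and 0 with normexp. The 0 sphingolipid genes higher were 1 with the series matrix, flags on 1 array and no flags, and the 1 lower was 0 with normexp and 2 with no flags. The 1 retinoid gene higher was 0 with normexp, 3 with flags on 1 array and 7 with no flags, and the 0 lower were 1 with either flag setting. Some marker counts in MSCs moved too. The 4 T cell genes higher were 2 with the median shift and 1 with normexp, where the 4 lower were 3. The 4 endothelial genes higher were 2 with normexp, where the 2 lower were 1. The 2 adipocyte genes higher were 7 with either flag setting. The cause of these moves was not tested.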
